A study of Homo sapiens with 4 samples.

Results

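The histone cluster genes were 72 of the 26485 gene names listed for these libraries. Each began with HIST1, HIST2, HIST3 or HIST4 followed by the histone class, and names ending in PS and a number were left out. The 72 comprised 6 genes of the linker histone H1, 17 of H2A, 20 of H2B, 14 of H3 and 15 of H4. Of these genes, 55 belonged to the HIST1 cluster on chromosome 6, 13 to the HIST2 genes on chromosome 1, 3 to the HIST3 genes further along chromosome 1 and 1 (HIST4H4) to chromosome 12. The only name left out as a pseudogene, HIST1H2APS1, was listed at 0 in all 4 libraries. HIST2H2BA and HIST2H2BC, whose current symbols H2BP1 and H2BC20P are those of pseudogenes, were kept by this rule. Levels were measured in SW1736 and 8505C, established human lines of anaplastic thyroid cancer, a dedifferentiated and aggressive thyroid tumour. The wild-type (wt) cells of each line received no drug. The resistant cells (SW1736-PTX and 8505C-PTX) were obtained over 6 months of growth in paclitaxel, a taxane that stabilizes microtubules, raised stepwise from 1 nM to 1.5 µM, and were then maintained at 1.5 µM. Each resistant line was thus kept in medium with drug, and whether drug was present when RNA was taken is not stated. The acquired state and the presence of the drug cannot be told apart. One mRNA library was sequenced for each of the 4 conditions, so every difference below is between 2 libraries, has no replicate check and carries no p-value.

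Nucleosomes are built from H2A, H2B, H3 and H4, and H1 binds the DNA between them. Most genes of the histone clusters are replication-dependent: their mRNA accumulates in S phase, has no introns and ends in a conserved stem-loop instead of a poly(A) tail. The stem-loop binding protein SLBP, with U7 snRNP and cleavage factors, forms that end, and the transcript is degraded when DNA synthesis stops. Some histone cluster genes also give a longer, polyadenylated transcript that runs past the stem-loop, a form known from differentiated and non-dividing cells. The libraries were made with a kit for mRNA, which selects polyadenylated RNA, so histone transcripts ending at the stem-loop were largely outside what was sequenced. The values below are therefore levels of the histone mRNA that such a selection retains, not of all histone mRNA.

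The stem-loop, 16 bases long, was found in hg38 in all 72 genes. It is shown here because it is the end that the usual transcript carries, and because every gene described below has it whatever its level. It took 10 forms, of which 1 was held by 41 genes. The following stretches, written in sense orientation with the stem-loop in capitals, come from 3 genes called higher and 3 called lower in the resistant cells of at least 1 line (hg38, coordinates with strand after each name).
HIST3H2A (chr1:228457364-228457389, minus strand): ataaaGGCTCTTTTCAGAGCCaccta
HIST1H2BD (chr6:26158582-26158607, plus strand): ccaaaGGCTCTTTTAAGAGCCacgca
HIST2H4A (chr1:149833027-149833052, plus strand): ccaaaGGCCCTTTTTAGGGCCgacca
HIST1H2BH (chr6:26252050-26252075, plus strand): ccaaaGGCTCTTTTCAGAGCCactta
HIST1H3C (chr6:26045844-26045869, plus strand): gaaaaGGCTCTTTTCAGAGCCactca
HIST1H4F (chr6:26240773-26240798, plus strand): taaaaGGCCCTTTTCAGGGCCacctc
HIST3H2A, HIST1H2BH and HIST1H3C held the same stem-loop letter for letter, although HIST3H2A was higher and the others lower in resistant cells.

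Of the 17 H2A and 20 H2B genes, many lay in head-to-head pairs that share the stretch between their starts. There were 13 such pairs with starts at most 400 bases apart, HIST2H2AA4 being counted with its identical copy HIST2H2AA3. The 3 stretches below belong to pairs described in the results. They run from the start of the first gene, on the minus strand, to that of the second, on the plus strand, and are written on the plus strand of hg38. Capitals mark the octamer ATTTGCAT (bound by POU2F1), CCAAT (bound by NF-Y) and TATAAA, each on either strand.
HIST3H2A and HIST3H2BB (chr1:228457860-228458106): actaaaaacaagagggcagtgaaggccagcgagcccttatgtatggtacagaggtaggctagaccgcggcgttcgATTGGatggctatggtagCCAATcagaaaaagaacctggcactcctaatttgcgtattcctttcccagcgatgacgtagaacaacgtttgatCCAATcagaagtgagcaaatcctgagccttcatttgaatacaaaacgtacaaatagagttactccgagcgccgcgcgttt
HIST1H2BC and HIST1H2AC (chr6:26123905-26124144): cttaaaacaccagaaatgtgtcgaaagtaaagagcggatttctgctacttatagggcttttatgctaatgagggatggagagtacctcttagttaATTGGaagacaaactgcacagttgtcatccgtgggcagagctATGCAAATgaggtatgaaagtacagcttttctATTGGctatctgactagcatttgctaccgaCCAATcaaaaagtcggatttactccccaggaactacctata
HIST2H2BE and HIST2H2AC (chr1:149886683-149886974): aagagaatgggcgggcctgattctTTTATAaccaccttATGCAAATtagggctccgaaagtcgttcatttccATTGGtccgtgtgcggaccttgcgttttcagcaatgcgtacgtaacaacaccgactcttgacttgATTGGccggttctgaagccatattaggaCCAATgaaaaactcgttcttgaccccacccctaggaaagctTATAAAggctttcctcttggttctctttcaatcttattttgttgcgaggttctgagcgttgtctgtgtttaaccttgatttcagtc
The stretch of the HIST3 pair held 3 CCAAT boxes and neither of the other motifs. The stretches of the HIST1 and HIST2 pairs each held 1 octamer and 3 CCAAT boxes, and that of the HIST2 pair also 2 TATAAA. RefSeq promoters on hg38, from 250 bases before to 50 after the start, were matched for 65 of the 72 genes. The octamer stood in 40% of them, against 1.80% of all 27305 promoters. It was a feature of classes: 11 of 16 H2A and 14 of 18 H2B promoters held it, but 1 of 12 H3 and 0 of 13 H4 and 0 of 6 H1 promoters. CCAAT stood in 84.6% of the matched promoters (3 of 13 for H4, all of those of the other classes), against 35.7% of all promoters, and TATAAA in 66.2% against 12.0%.

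The libraries held between 43.5 and 57.9 M aligned reads of 75 bases, both resistant libraries being deeper than their wt libraries. Values are FPKM, fragments scaled to gene length and library depth, so that levels of different genes can be compared. A count of 3 reads on 500 bases, about the length of a histone mRNA, came to between 0.104 and 0.138 FPKM. Before any comparison, SW1736-PTX has to be set beside the other libraries. Over 14692 genes, log2(FPKM + 0.1) of SW1736-PTX had a Pearson r of 0.767 with its parent SW1736 wt, 0.873 with 8505C wt and 0.933 with 8505C-PTX, while 8505C wt and 8505C-PTX had 0.877. Over the 47 histone cluster genes compared in at least 1 line, the same 4 values were 0.449, 0.806, 0.939 and 0.813. These are correlations across genes, which are not independent, and share each library's depth. The library labelled SW1736-PTX thus resembled 8505C more than its own parent. As for the tissue of origin, 1 to 3 of 10 thyroid follicular markers exceeded 0.5 FPKM in each library, with a summed level of 30.9 to 68.2 FPKM, but not the same markers. The thyroid transcription factors PAX8 and FOXE1 had 38.2 and 26.6 FPKM in SW1736 wt and at most 0.206 and 0.511 FPKM in the other libraries. NKX2-1, another of them, was listed at 0 in SW1736 wt and had 30.5 to 39.0 FPKM in the others. The keratin gene KRT19 had 266 FPKM in the parent of SW1736-PTX, 0.535 FPKM in the resistant line itself, and was listed at 0 for 8505C wt and 8505C-PTX alike. In PAX8, FOXE1, NKX2-1 and KRT19 too SW1736-PTX lay with 8505C. DIO2, another of the thyroid markers, went the other way. It had 3.34 and 1.53 FPKM in wt and resistant SW1736 and at most 0.0288 FPKM in the 8505C libraries, so SW1736-PTX lay nearer its parent there. KRT19 was 1 of 5 epithelial markers. KRT8 had 331, 973, 440 and 974 FPKM in SW1736 wt, SW1736-PTX, 8505C wt and 8505C-PTX. KRT18 had 257, 1437, 511 and 1240 FPKM in the same order. Both were higher in each resistant library, and EPCAM and CDH1 had at most 0.0806 FPKM. The mesenchymal markers summed to 4854, 1882, 1544 and 1629 FPKM. How much of each SW1736 change is a difference between the lines, and not between resistant and wt cells, cannot be told apart. Of the 16 histone cluster genes called in SW1736-PTX against its parent, 5 were called the same way against 8505C wt, 3 were compared and not called, and 8 stayed at or under 0.5 FPKM in both of these libraries. The leukocyte markers summed to at most 4.52 FPKM and the endothelial markers to at most 0.281 FPKM.

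Histone cluster genes were a small share of the sequenced mRNA. Their summed FPKM was 83.3 and 121 FPKM in wt and resistant SW1736 and 125 and 173 FPKM in wt and resistant 8505C, or 0.0190% to 0.0386% of each library's TPM. The sum was thus higher in the resistant cells of both lines, by 1.46-fold in SW1736 and 1.38-fold in 8505C. The typical gene was not. The median FPKM of the 72 genes was 0.265 in SW1736-PTX beside 0.583 in its parent, and 0.226 in 8505C-PTX beside 0.415 in 8505C wt. The number of genes above 0.5 FPKM went from 39 to 29 in SW1736 and from 32 to 26 in 8505C. A few genes carried much of the total. The 8 with the highest mean FPKM over all 4 libraries held 73.8% of the summed FPKM in SW1736-PTX against 46.7% in its parent. In 8505C-PTX they held 81.3%, against 62.2% in 8505C wt. The summed FPKM of the other 64 genes was 31.8 in SW1736-PTX against 44.4 in wt cells, and 32.5 in 8505C-PTX against 47.4. The resistant libraries entered the ranking of the 8, so these shifts between the 8 and the other 64 follow in part from the choice.

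To ask which histone genes differed between resistant and wt cells, log2((PTX + 0.1)/(wt + 0.1)) was computed for each gene with over 0.5 FPKM in either library, and changes above 1.5 or below -1.5 were called. In SW1736, 44 of the 72 genes were compared. Of these, 4 were called higher (9.09%, against 15.7% of all 14202 genes compared) and 12 lower (27.3%, against 10.2%). In 8505C, 36 were compared, of which 7 were called higher (19.4%, against 15.0% of all 13794 genes) and 7 lower (19.4%, against 5.89%). The median change was -0.32 in both lines, beside 0.01 over all genes in SW1736 and 0.11 in 8505C. The shares called higher thus stood below the background in SW1736 and near it in 8505C, whereas the shares called lower stood above it in both at these limits. Among the 33 genes compared in both lines, 3 were called higher in both (HIST3H2A, HIST3H2BB and HIST1H2BD, against a background of 7.37%) and 3 lower in both (HIST1H2AM, HIST1H2BH and HIST1H3C, against 2.41%). No gene was called in opposite directions. Of the 72 genes, 24 were called in at least 1 line, 23 were compared and not called, and 25 stayed at or under 0.5 FPKM in all libraries. The calls of lower genes rest on small values, and with a pseudocount of 0.5 in place of 0.1 they went from 12 to 1 in SW1736, which is under the background (2.27%, against 7.80% of all genes), and from 7 to 2 in 8505C (5.56%, against 4.47%).

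**Figure D1:**
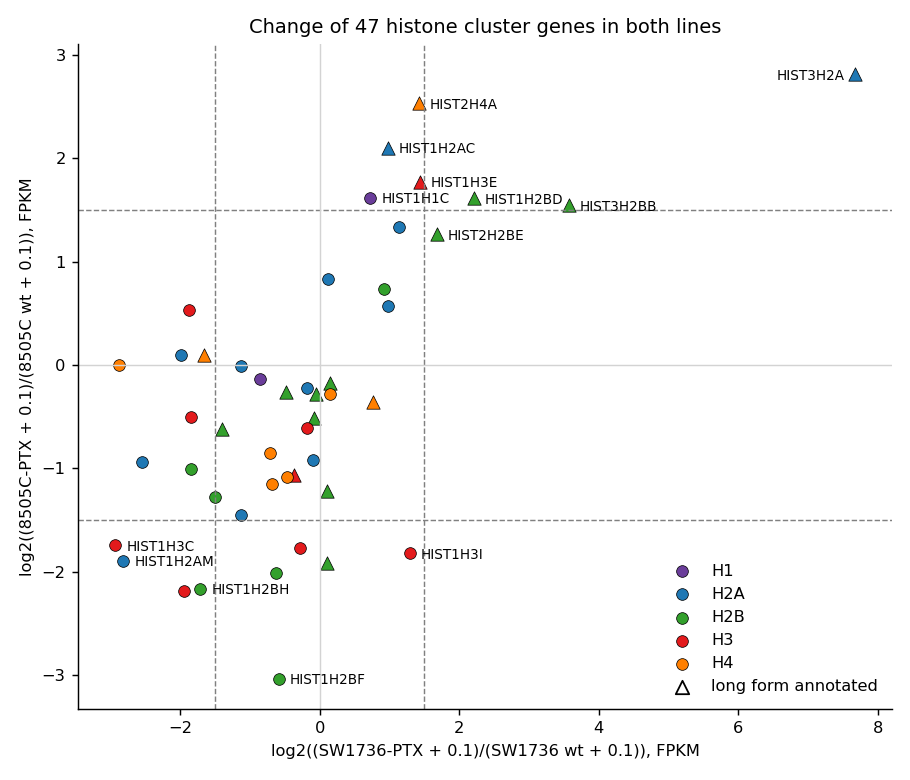
Change of the 47 histone cluster genes compared in at least 1 line, with log2((PTX + 0.1)/(wt + 0.1)) of FPKM in SW1736 on the horizontal axis and in 8505C on the vertical axis, 1 point per gene from 1 library per condition. Colours mark the histone class and dashed lines a change of 1.5. Triangles mark genes with an annotated transcript or deposited row over 100 bases past the stem-loop. Genes at the top right were called higher in both lines and those at the bottom left lower in both, and HIST3H2A stands farthest to the right at 7.68.

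The largest rise of any histone cluster gene, in each line, was that of HIST3H2A. HIST3H2A, a replication-dependent H2A gene, had 20.4 FPKM in SW1736-PTX but was listed at 0 in its parent, and had 31.4 FPKM in 8505C-PTX against 4.38 in 8505C wt. Both resistant libraries thus stood above both wt libraries. In SW1736, a floor of 3 reads in the wt library made the level at least 165-fold higher in resistant cells, and in 8505C the log2 change was 2.82 (7.18-fold, 95% counting interval of the log2 ratio 2.53 to 3.16). Such intervals come from the reads that coverage and gene length imply, 94.6 and 835.5 for these 2 libraries, and cover counting error only. HIST3H2BB, its H2B partner across a gap of 247 bases, stood much lower but moved the same way. Its level was 1.09 FPKM in SW1736-PTX and 0 in the parent, and 0.787 FPKM in 8505C-PTX and 0.204 in 8505C wt. That was at least 8.07-fold higher in SW1736-PTX and a log2 change of 1.55 in 8505C (interval 0.36 to 3.96, on 4.0 and 19.1 reads). The 8505C call of HIST3H2BB was lost when changes were centred on the median of all genes. HIST3H3, the third HIST3 gene and known mainly from testis, was listed at 0 in both wt libraries and at 0.0479 and 0.0517 FPKM in the resistant ones. Against 8505C wt, SW1736-PTX was 4.67-fold higher for HIST3H2A and 5.37-fold higher for HIST3H2BB, so both were called with that reference as well. Between the wt lines, HIST3H2A was higher in 8505C (log2 difference 5.49).

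**Figure D2:**
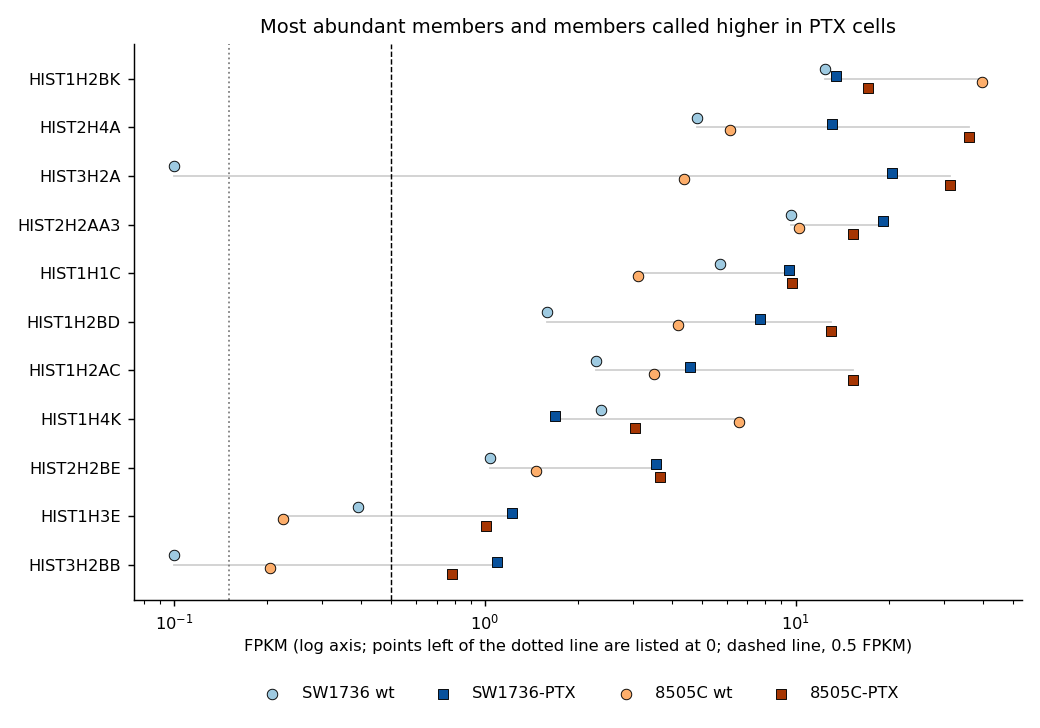
FPKM in each of the 4 libraries on a log axis, 1 point per library, for the 8 most abundant histone cluster genes and those called higher in resistant cells. Circles are wt and squares resistant cells, points left of the dotted line are listed at 0, and the dashed line marks 0.5 FPKM. HIST3H2A runs from 0 to 31.4 FPKM, and HIST1H2BK and HIST1H4K have their highest level in 8505C wt, at 39.8 and 6.56 FPKM.

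HIST1H2BD, an H2B gene whose deposited row spans 13228 bases and runs past the stem-loop by 12746, was the third gene called in both lines. Its level was 1.58 and 7.67 FPKM in wt and resistant SW1736 and 4.18 and 13.0 FPKM in wt and resistant 8505C. The log2 change was 2.21 in SW1736 and 1.62 in 8505C, but 0.86 for SW1736-PTX against 8505C wt, short of the call. HIST2H2BE, another H2B gene, with a row of 2223 bases of which 1728 lie past the stem-loop, had 1.04, 3.55, 1.46 and 3.65 FPKM in SW1736 wt, SW1736-PTX, 8505C wt and 8505C-PTX. It was called in SW1736 (log2 change 1.68, interval 1.47 to 2.08) and missed the call in 8505C at 1.26 and in SW1736-PTX against 8505C wt at 1.23. In both genes the 2 resistant libraries stood above the 2 wt libraries.

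HIST2H4A, an H4 gene, had the highest mean level of its class and the second highest of all 72 genes, although HIST1H4J and HIST1H4K stood above it in 8505C wt. It had 4.81 and 13.1 FPKM in wt and resistant SW1736 and 6.15 and 36.1 FPKM in wt and resistant 8505C. The log2 change was 2.53 in 8505C and, just short of the call, 1.43 in SW1736, beside 1.08 for SW1736-PTX against 8505C wt. This name stood at 2 places on chromosome 1 with equal values in each library, and its neighbour HIST2H4B shares all of its 75-base stretches and was listed at 0.120 FPKM or less. Reads of these copies cannot be told apart, and the FPKM given is the sum of both places. HIST2H2AA3, an H2A gene duplicated in the same way with HIST2H2AA4, had 9.67, 19.1, 10.2 and 15.3 FPKM in the same order. It was higher in both resistant libraries, at log2 changes of 0.98 and 0.57 that were not called. The third duplicated gene, HIST2H3C with its copy HIST2H3A, stood apart: 1.13 and 0.236 FPKM in wt and resistant SW1736 and 0.487 and 0.748 FPKM in wt and resistant 8505C, a called fall in SW1736 (log2 change -1.87) beside 0.53 in 8505C. Both SW1736-PTX and 8505C wt were under 0.5 FPKM, so it was not compared between them.

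The remaining genes called higher were called in 8505C alone, and the difference between the lines was not tested. HIST1H2AC, an H2A gene, had 2.28 and 4.58 FPKM in wt and resistant SW1736 and 3.49 and 15.3 FPKM in wt and resistant 8505C, with log2 changes of 0.98 and 2.10 (interval in 8505C 1.79 to 2.49). It was also the 1 gene called higher in 8505C-PTX than in SW1736-PTX, by a log2 difference of 1.72. HIST1H1C, which encodes the linker histone H1.2, had 5.70, 9.51, 3.11 and 9.74 FPKM in the same order, with log2 changes of 0.73 and 1.62 (interval in 8505C 1.33 to 1.98). It held at least 78.6% of the summed H1 level in each library. HIST1H3E, an H3 gene, had 0.392, 1.23, 0.224 and 1.01 FPKM, with log2 changes of 1.43 and 1.77. In all 3 genes both resistant libraries stood above both wt libraries. Against 8505C wt, SW1736-PTX was called for HIST1H1C (1.58) and HIST1H3E (2.04), not for HIST1H2AC (0.38).

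The genes called lower were of low level: of the 16 called lower in at least 1 line, none exceeded 4.03 FPKM in any library. The HIST1 cluster held 13 of them (81.3%), near its share of all 72 genes (76.4%). HIST1H2BH, an H2B gene and the most abundant of them, had 3.35 and 0.956 FPKM in wt and resistant SW1736 and 4.03 and 0.822 FPKM in wt and resistant 8505C. Its log2 changes were -1.71 (interval -2.52 to -1.10) and -2.16 (interval -3.09 to -1.54). HIST1H2AM, an H2A gene, had 1.59, 0.139, 0.844 and 0.153 FPKM in the same order, with log2 changes of -2.82 and -1.90. HIST1H3C, an H3 gene, had 1.04, 0.0502, 0.937 and 0.209 FPKM, with log2 changes of -2.93 and -1.75. For these 3 genes both resistant libraries stood below both wt libraries, and SW1736-PTX was also called lower against 8505C wt, at -1.97, -1.98 and -2.79. The counts behind them are small: in the higher library of each pair, the genes called lower rested on 11.4 to 69.8 implied reads in SW1736 and on 10.4 to 74.6 in 8505C. The counting interval lay below no change for each of the 12 and 7 genes called lower. It uses the same reads as the call, so it gives the calls no separate support.

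**Figure D3:**
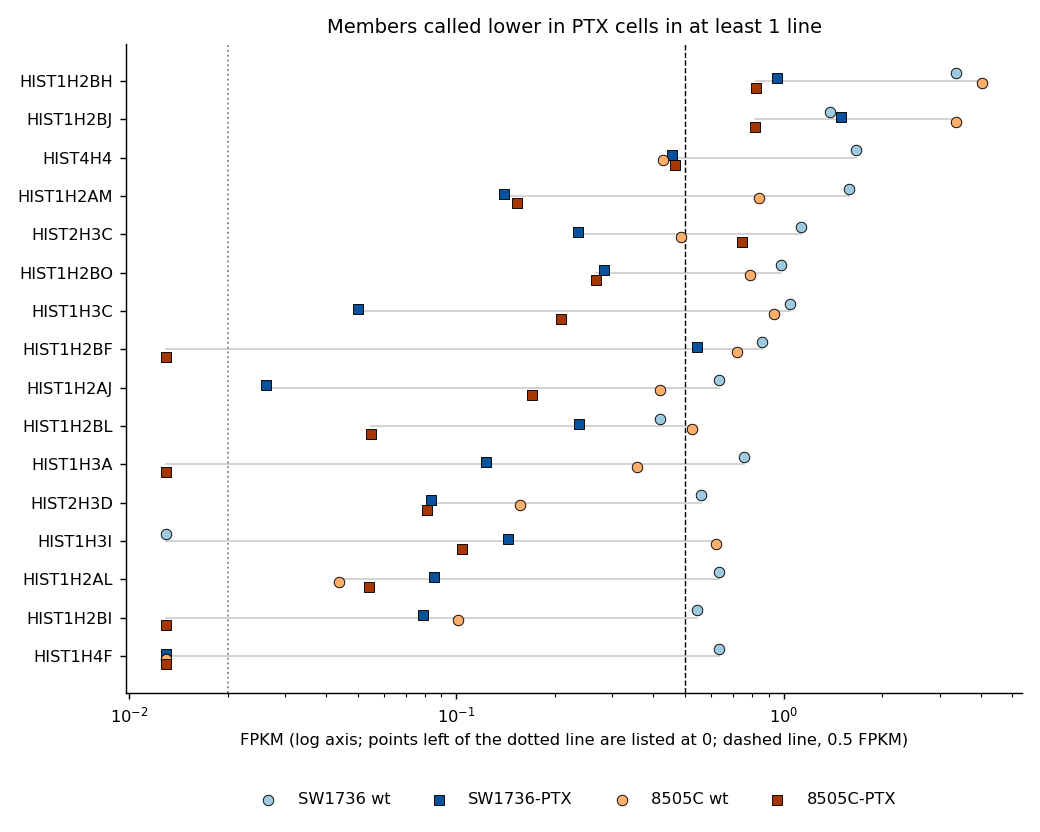
FPKM in each of the 4 libraries on a log axis, 1 point per library, for the 16 histone cluster genes called lower in at least 1 line. Circles are wt and squares resistant cells, points left of the dotted line are listed at 0, and the dashed line marks 0.5 FPKM. For HIST1H2BH, HIST1H2AM and HIST1H3C both squares lie left of both circles, and for HIST4H4 and HIST1H4F, among others, the SW1736 wt circle alone lies above 0.5 FPKM.

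Lower in SW1736 and under 0.5 FPKM in both 8505C libraries were 7 genes: HIST1H2AJ, HIST1H2AL, HIST1H2BI, HIST1H3A, HIST1H4F, HIST2H3D and HIST4H4. They were likewise under 0.5 FPKM in SW1736-PTX, so none of the 7 was compared between it and 8505C wt. HIST4H4, the H4 gene on chromosome 12, had 1.66 FPKM in SW1736 wt against 0.428 to 0.466 in the other libraries, so that SW1736 wt alone stood apart. HIST1H4F was listed above 0 in SW1736 wt alone, at 0.635 FPKM, and listed at 0 in each of the others, which is at least 4.51-fold lower in SW1736-PTX. HIST1H3A, in contrast, was lower in both resistant libraries, with 0.758 and 0.123 FPKM in SW1736 and 0.356 and 0 in 8505C. HIST1H2AJ shares 70.7% of its 75-base stretches with HIST1H2AI, an H2A gene that had log2 changes of -1.13 and -1.45 and was not called, so the split of reads between them is uncertain. HIST1H2BO, an H2B gene, was called in SW1736 at the edge of the threshold (3.49-fold lower, 0.983 against 0.282 FPKM) and neither in 8505C (log2 change -1.28) nor in SW1736-PTX against 8505C wt (-1.22). Lower in 8505C alone were 4 genes. HIST1H2BJ, an H2B gene, had 3.36 FPKM in 8505C wt and 0.820 in 8505C-PTX (log2 change -1.91, interval -2.81 to -1.32), beside 1.39 and 1.50 in SW1736 wt and SW1736-PTX. HIST1H2BF had 0.720 FPKM in 8505C wt and was listed at 0 in 8505C-PTX, at least 5.53-fold lower, beside 0.859 and 0.542 in SW1736. HIST1H2BL and HIST1H3I were called at -2.02 and -1.82, on 10.4 and 12.9 implied reads in 8505C wt.

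Other abundant genes were not called. HIST1H2BK, an H2B gene with the highest mean level of all, had 12.5 and 13.5 FPKM in wt and resistant SW1736 and 39.8 and 17.1 FPKM in wt and resistant 8505C. Its row of 8566 bases holds all of HIST1H4I, whose level did not exceed 0.271 FPKM and whose reads could be counted with it. Its log2 changes were 0.11 in SW1736 and -1.22 in 8505C, and SW1736-PTX was called lower than 8505C wt (-1.56). HIST1H4K had 2.37, 1.69, 6.56 and 3.04 FPKM and HIST1H4J 2.42, 1.47, 6.62 and 2.93. These H4 genes share 91.1% of the 75-base stretches of HIST1H4K, so most of their reads could not be told apart. HIST1H4E had 2.89, 1.72, 2.32 and 1.24 FPKM, so that all 3 H4 genes were lower in both resistant libraries without passing the threshold, while HIST2H4A of the same class was higher in both. HIST1H2AE and its head-to-head partner HIST1H2BG had log2 changes of 1.14 and 0.93 in SW1736 and 1.34 and 0.73 in 8505C, both higher in each line and short of the call.

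Of the 25 genes at or under 0.5 FPKM throughout, 4 were listed at 0 in all libraries: HIST1H1T, HIST1H2AA, HIST1H2BA and HIST1H4G. All but HIST1H4G are known from testis. The highest value among the 25 was 0.470 FPKM, for the H1 gene HIST1H1B in SW1736 wt. At this depth a level of 0.5 FPKM on 500 bases corresponds to 10.9 to 14.5 reads, so differences of these genes rest on few reads. The counting interval lay on 1 side of no change for 6 of the 25, HIST1H1B and HIST1H2BM lower in SW1736-PTX, and HIST1H1D higher and HIST1H3F, HIST1H3J and HIST1H4B lower in 8505C-PTX. For HIST1H1B it was -5.23 to -1.05 on the log2 scale, on 18.2 reads in SW1736 wt and 3.1 in SW1736-PTX. Over all 72 genes, 29 shared at least 1 stretch of 75 bases with another of them and 12 shared over 50% of their stretches.

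Summed by class, H2A stood higher in the resistant cells of both lines and H3 lower. The 17 H2A genes summed to 20.4 and 48.8 FPKM in wt and resistant SW1736 and 26.5 and 68.7 FPKM in wt and resistant 8505C, and HIST3H2A made up 41.9% and 45.7% of the 2 resistant sums. The H1 sum was 7.25, 10.1, 3.69 and 10.4 FPKM in the same order, of which HIST1H1C held 78.6%, 94.2%, 84.2% and 94.1%. The H4 sum was 17.2, 20.9, 25.6 and 46.0 FPKM, of which HIST2H4A held 62.8% in SW1736-PTX and 78.5% in 8505C-PTX. The H2B sum was higher in SW1736-PTX (37.7 FPKM, against 32.0 in wt) and lower in 8505C-PTX (45.1, against 64.1), and HIST1H2BK made up 62.1% of the 8505C wt sum. The 14 H3 genes had the lowest sum of any class except in 8505C wt, where the H1 sum was lower. Their sum was lower in both resistant lines, at 6.50 and 3.93 FPKM in SW1736 and 5.47 and 3.26 in 8505C. By position, the HIST1 sum was 57.4, 58.4, 95.7 and 79.1 FPKM, the HIST2 sum 24.2, 41.0, 24.6 and 61.6 FPKM, and the HIST3 sum 0, 21.6, 4.58 and 32.3 FPKM, so that the HIST2 and HIST3 sums were higher in both resistant lines and the HIST1 sum was not.

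**Figure D4:**
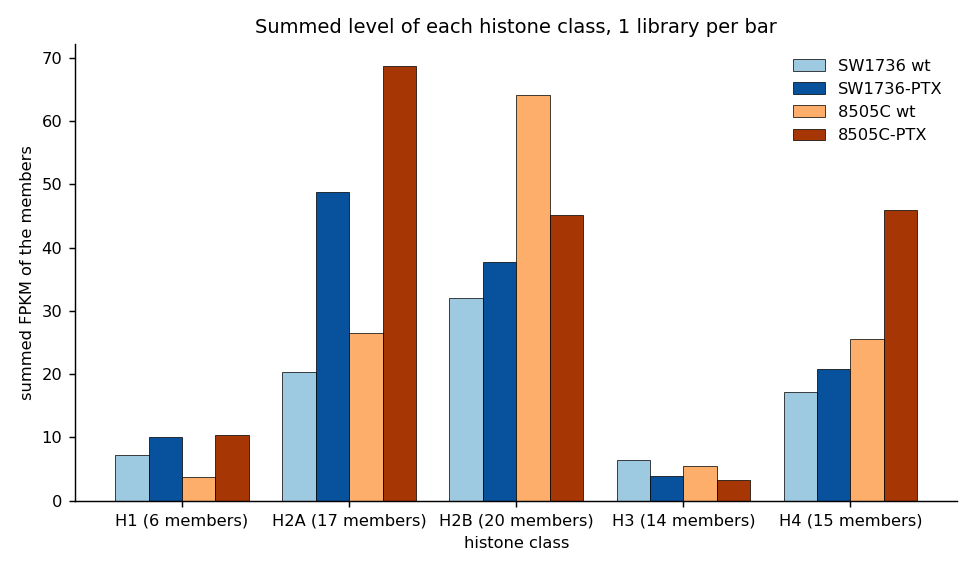
Summed FPKM of the histone cluster genes of each class, 1 bar per library and no error bars because each condition has 1 library. The H2A bars of both resistant lines (48.8 and 68.7) exceed both wt bars (20.4 and 26.5), and the H3 bars of both resistant lines lie under those of their wt lines.

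Since the libraries hold polyadenylated RNA, the genes were also set apart by annotated transcript ends. A long form was counted where a GENCODE release 44 transcript of the gene, or its deposited row, ran more than 100 bases past the stem-loop. This limit was chosen after the values were seen, and the counts are given as a description. A long form was counted for 20 of the 72 genes. It was annotated for 7 of the 8 genes called higher in at least 1 line, the exception being HIST1H1C, and for 2 of the 16 called lower, HIST1H2BJ and HIST4H4. Of the 23 genes compared and not called, 8 had one, HIST1H2BK among them, and so did 3 of the 25 at or under 0.5 FPKM. An annotated long form is not by itself a polyadenylated one. The poly(A) signal AATAAA was searched in the last 50 bases of the annotated transcripts past the stem-loop. None was found for HIST3H2A, HIST1H2BC, HIST2H2BC and HIST4H4. HIST1H2BK counted by its deposited row alone and had no such transcript, so nothing was searched for it. For each of the other genes with a long form, at least 1 was found. The summed FPKM of the 20 genes went from 35.0 to 75.3 in SW1736 and from 73.6 to 127 in 8505C. Their median log2 change was 0.15 in SW1736 and -0.18 in 8505C, against -0.86 and -0.92 for the genes without a long form, so that the higher sums came from a few abundant genes, HIST3H2A and HIST2H4A among them. The summed FPKM of the other 52 was 48.3 and 46.1 in SW1736 and 51.8 and 46.1 in 8505C. The shares over all genes compared were 15.7% higher and 10.2% lower in SW1736, and 15.0% and 5.89% in 8505C. Called higher and lower were 4 and 1 of 17 genes with a long form in SW1736, and 6 and 1 of 15 in 8505C, against 0 and 11 of 27 without one in SW1736 and 1 and 6 of 21 in 8505C. The deposited rows of most of these genes end within a few bases of the stem-loop (5 bases past it for HIST3H2A), so the files do not show how far the sequenced transcripts ran, and whether the rise came from longer transcripts was not tested.

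**Figure D5:**
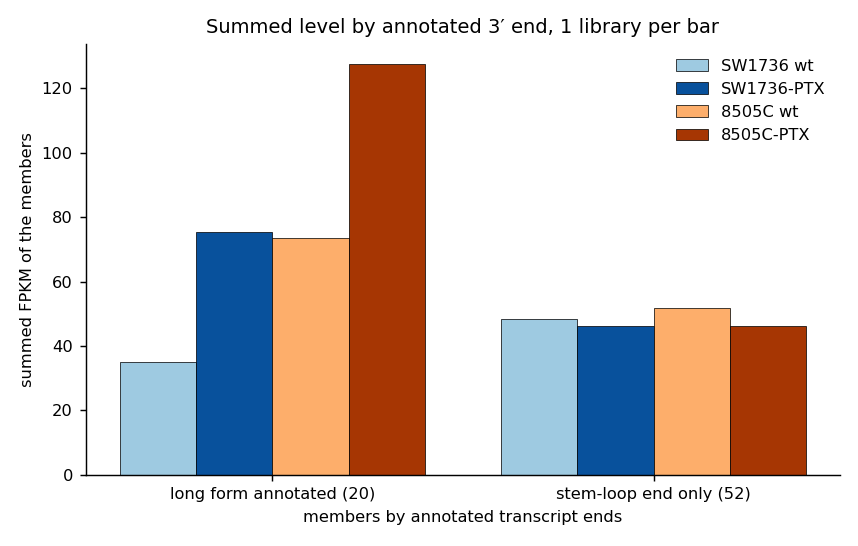
Summed FPKM of the 20 histone cluster genes with a long form, by annotated transcript or deposited row, and of the 52 without one. There is 1 bar per library and no error bars because each condition has 1 library. The sums of the 20 genes are 75.3 and 127 in the resistant lines against 35.0 and 73.6 in wt, while those of the 52 genes stay between 46.1 and 51.8.

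Partners of a head-to-head pair did not always share a call. Both were compared in 8 of the 13 pairs in SW1736 and in 9 of the 13 in 8505C. In SW1736, both partners were called the same way in 2 of the 13 pairs, HIST3H2A with HIST3H2BB (higher) and HIST1H2AM with HIST1H2BO (lower), and in 2 pairs a single partner was called. In 8505C the HIST3 pair alone was called together, and in 5 pairs a single partner was called. Among the uncalled partners in 8505C, HIST1H2AG (-0.92), HIST1H2AI (-1.45) and HIST1H2BO (-1.28) moved the same way, short of the call. HIST1H2AD in 8505C and HIST1H2BM in SW1736 were under the limit and not compared. No pair was called in opposite directions in either line. The HIST1H2BC and HIST1H2AC pair, whose shared stretch is printed above with its octamer, is an example of unequal partners: HIST1H2AC rose in 8505C by 2.10 on the log2 scale, and HIST1H2BC had a change of -0.51. In the HIST2H2BE and HIST2H2AC pair, which also shares an octamer, HIST2H2BE had log2 changes of 1.68 and 1.26 and HIST2H2AC -1.13 and -0.01.

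Among genes that make or carry histones, none was called higher in the resistant cells of either line. For comparison, 15.7% of all genes compared were called higher and 10.2% lower in SW1736, and 15.0% and 5.89% in 8505C. Of 26 factors of histone gene transcription and mRNA processing, 0 were called higher and 4 lower in each line, with median changes of -0.51 in SW1736 and -0.78 in 8505C. SLBP had 25.6, 24.1, 30.2 and 20.6 FPKM in SW1736 wt, SW1736-PTX, 8505C wt and 8505C-PTX, and NPAT, the coactivator of histone genes, 9.72, 5.66, 8.30 and 4.77. Neither was called. Cyclin E, which with CDK2 phosphorylates NPAT, was called lower in both lines for both of its genes: CCNE1 had log2 changes of -2.86 and -2.75 and CCNE2 -1.83 and -2.60. Of 24 histone chaperones, 8 were called lower in SW1736 and 6 in 8505C and 0 higher, with medians of -0.98 and -1.01. The 6 called in both lines were ASF1B, CHAF1A and CHAF1B, which deliver new H3 and H4 to replicating DNA, HAT1, which acetylates new H4, MMS22L and DNAJC9, with log2 changes from -1.53 to -2.54 in SW1736 and from -1.53 to -2.11 in 8505C. Of 30 DNA replication and S-phase genes, 14 were called lower in SW1736 and 21 in 8505C and 0 higher, with medians of -1.34 and -1.85. PCNA had 386, 104, 258 and 79.7 FPKM in the same order. CDKN1A, an inhibitor of cyclin-dependent kinases counted in that list, had 8.16, 18.5, 13.0 and 13.5 FPKM and was not called. The part of S-phase gene levels in the histone changes was not tested.

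Replication-independent histone genes, which give polyadenylated mRNA through the cell cycle, were in part far more abundant than the cluster genes. Of the 19 listed, 6 (H1FX, H2AFV, H2AFX, H2AFY, H2AFZ and H3F3B) had at least 56.6 FPKM in each library, above the highest level of any cluster gene (39.8), and 8 had at most 0.1 FPKM in every library. H2AFZ (H2A.Z) had 284, 146, 517 and 189 FPKM and H3F3B (H3.3) 135, 97.3, 207 and 167, both lower in the resistant cells of each line and not called. H2AFX (H2A.X), which also has a stem-loop form, was called lower in both lines, with log2 changes of -1.66 and -1.54. H1F0 (H1.0), a linker histone known from differentiated cells, had 30.0 and 0.145 FPKM in wt and resistant SW1736 and 0 and 0.0106 FPKM in wt and resistant 8505C. Here SW1736-PTX was near the 8505C libraries and far from its parent. Of the 11 genes of this list compared in SW1736, 1 was called higher (H3F3A, listed at 0.0368 and 0.503 FPKM) and 2 lower, and of the 9 compared in 8505C, 0 higher and 1 lower. The H3F3A call rests on a value just over the limit of 0.5 FPKM, and the gene had at most 0.0395 FPKM in the 8505C libraries. The shares over all genes are those given above.

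The HIST1 cluster spans 2.17 Mb of chromosome 6 (chr6:25726063-27893891) and also holds 31 genes that are not histone cluster members, 16 of which were compared in each line. Of these, the same 4 names, BTN3A1, BTN3A3, PRSS16 and ZNF204P, were called higher in SW1736 and in 8505C, and 1, HFE, was called lower in SW1736. Over all genes compared, 15.7% in SW1736 and 15.0% in 8505C were called higher, and 10.2% and 5.89% lower. BTN3A1, a butyrophilin with a role in recognition by gamma-delta T cells, had 1.51 and 10.0 FPKM in wt and resistant SW1736 and 2.59 and 9.83 FPKM in wt and resistant 8505C. The median change of the 16 was 0.13 in SW1736 and 0.51 in 8505C, beside -0.36 and -0.92 for the HIST1 members of the same region. HFE had 4.21, 0.201, 0.438 and 0.428 FPKM, another gene for which SW1736-PTX lay near the 8505C libraries.

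Comparing the lines with each other, 8505C wt and SW1736 wt differed in 8 of the 44 histone cluster genes compared, 3 higher in 8505C wt (6.82%, against 7.73% of all genes) and 5 lower (11.4%, against 9.92%). Between the resistant lines, 2 of 31 differed, HIST1H2AC higher in 8505C-PTX (3.23%, against 3.70%) and HIST1H2BF lower (3.23%, against 4.09%). When 8505C wt replaced the parental reference, 4 of 35 genes were called higher in SW1736-PTX (11.4%, against 15.1%) and 8 lower (22.9%, against 5.23%), with a median change of -0.35. HIST3H2A, HIST3H2BB, HIST1H1C and HIST1H3E were those called higher. At these limits more histone cluster genes were called lower than higher in SW1736-PTX with either wt library, but a pseudocount of 0.5 turned the balance against its parent to 3 higher and 1 lower.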

How the data were processed

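RNA of 4 conditions, 1 library each, was sequenced as single-end reads of 75 bases from a Universal Plus mRNA-Seq library. According to the methods, the authors made base calls with bcl2fastq (version 2.20), masked adapters with Cutadapt, trimmed with ERNE, aligned to hg38 with STAR and quantified genes with StringTie; the annotation, the strand setting and the treatment of reads that map to several places are not given in the sources used here. The deposited coverage is the mean read depth per base of a gene, not scaled to library size. The deposited FPKM is that depth per aligned base of the library. The deposited TPM expresses each gene relative to the library's summed FPKM. No read counts were used by any test.

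Rows that carry 1 gene name were added up on the FPKM scale. The change log2((PTX + 0.1)/(wt + 0.1)), which understates that of low genes, was taken for genes above 0.5 FPKM in at least 1 of the 2 libraries, with calls beyond 1.5. Depth was the highest ratio of coverage to FPKM divided by the read length. Reads per gene were implied as coverage times row length over 75 for rows of 1 exon, with 95% Clopper-Pearson intervals of the ratio and a floor of 3 reads per library; reads are not independent molecules, so both cover counting error only. The calls and intervals were tested on simulated data. Stem-loops, head-to-head stretches and shared 75-base stretches were read from hg38, transcript ends from GENCODE release 44, and promoters from RefSeq. Stem-loops were matched to a 16-base pattern allowing the known variants. Python 3.11.15, NumPy 2.4.6, pandas 2.3.3, SciPy 1.17.1 and matplotlib 3.10.9 were used.

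The histone genes and every list were chosen with earlier results of these data known. Genes named were those called in either line, the 8 with the highest mean FPKM, duplicated genes above 0.5 FPKM, listed genes called in both lines, and H1F0, SLBP, NPAT, H3F3B, H2AFZ and CDKN1A; the other genes named, among them HIST3H3, HIST1H1B, HIST1H2AE, HIST1H2AI, HIST1H2BC, HIST1H2BG, HIST1H4E, HIST1H4J, HIST2H2AC, H3F3A and HFE, were chosen after their values were seen. Not every listed gene called in both lines is named. The alternatives changed the pseudocount, FPKM limit, unit, centring, threshold, handling of repeated rows and of identical copies, and the reference library.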

Additional observations from a re-analysis of the deposited data

Results flagged for a closer look

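HIST1H3I, an H3 gene of the HIST1 cluster, was listed higher in the resistant library of SW1736 and lower in that of 8505C. It was listed at 0 FPKM in SW1736 wt and at 0.144 in SW1736-PTX, a log2 change of 1.29 on values under the limit of 0.5 FPKM and on 0 and 4.0 implied reads, with a counting interval that spans no change (lower end -0.84 on the log2 scale). It had 0.622 FPKM in 8505C wt and 0.104 in 8505C-PTX, a called log2 change of -1.82. Each change is between 2 libraries, and the difference between the lines was not tested.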

How the results depend on the processing

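With 1 library per condition, no replicate could be left out and no error between cultures is known. A fit over the 4 libraries with line and resistance as terms, which would treat the lines as replicates of each other, was not run. The calls of lower genes depended most on the settings. A pseudocount of 0.5 gave 1 lower gene and a median change of -0.20 in SW1736, 2 lower in 8505C and 0 lower in both lines. A pseudocount of 1 gave 2 higher, 0 lower and a median of -0.14 in SW1736, 3 higher, 0 lower and a median of -0.21 in 8505C, and 1 higher and 0 lower in both lines. Without a lower limit on FPKM, 12 genes were lower in 8505C. Requiring over 0.5 FPKM in both libraries gave 2 higher, 1 lower and a median of -0.067 in SW1736, 2 lower in 8505C, and 1 higher and 1 lower in both lines. A limit of 2 FPKM gave 1 lower gene and a median of 0.73 in SW1736, turning its direction with 13 genes compared, 2 lower genes in 8505C and 1 in both lines. On TPM, the median was -0.60 in SW1736 and -0.56 in 8505C, 13 genes were lower in 8505C and 5 in both lines, and the summed TPM was 190, 268, 287 and 386 in SW1736 wt, SW1736-PTX, 8505C wt and 8505C-PTX. A threshold of 1 gave 7 higher genes in SW1736, 13 lower in 8505C, and 7 higher and 5 lower in both lines. A threshold of 2 gave 4 lower in SW1736, 3 higher and 3 lower in 8505C, and 1 higher and 0 lower in both lines. A limit on the mean FPKM over the 4 libraries, chosen after seeing the data, gave 6 lower genes and a median of -0.083 in SW1736. In SW1736 the share called lower fell under that of all genes, and more genes were higher than lower, with a pseudocount of 0.5 (2.27% against 7.80%) or 1 (0% against 5.92%), with over 0.5 FPKM in both libraries (4.17% against 7.21%) and with a limit of 2 FPKM (7.69% against 9.32%), and in 8505C with a pseudocount of 1 (0% against 3.43%). The causes were not tested. Centring in 8505C removed a shift of 0.11 over all genes and gave 6 higher and 8 lower genes, HIST3H2BB losing its call. Over the genes named by rule and still compared under an alternative, 1249 values kept their side of the threshold, 90 lost it, 14 gained it and 0 changed sign. Calls lost because a gene fell under the FPKM limit of an alternative are not in this tally. Levels under about 0.5 FPKM rest on 10.9 to 14.5 reads or fewer for a gene of 500 bases.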
